A study of Homo sapiens with 8 samples.

Results

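The spindle assembly checkpoint genes described here are 10 genes taken by symbol from the deposited gene table: MAD1L1, MAD2L1, BUB1, BUB1B, BUB3 and TTK of the core checkpoint, the kinetochore complex of KNTC1, ZW10 and ZWILCH, and CDC20, the protein that the checkpoint inhibits. All 10 were found among the 25337 genes used, and all 10 were among the 12013 that entered the tests, for which the scaled FPKM averaged 1 or more. FPKM are fragments counted per unit of transcript length and of sequencing depth, here divided by 1 factor per library so that libraries can be compared. The RNA came from NCI-H82 cells, a long-used small cell lung cancer line; most tumours of this kind have lost pRB, the product of the RB1 gene. The cells carry pTripZ RB1, a transgene under doxycycline control.

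There were 4 groups of 2 libraries. The pRB- control cells received no doxycycline and only the solvent DMSO, and the pRB- AZD2811 cells no doxycycline and 32 nM AZD2811, an inhibitor of Aurora B kinase, for 48 h. The pRB+ control cells received 0.5 µg/mL doxycycline for 96 h, with DMSO for the last 48 h, and the pRB+ AZD2811 cells the same doxycycline with 32 nM AZD2811 for the last 48 h. All 4 groups carry the transgene, and no group had doxycycline without it, so an effect of doxycycline and an effect of pRB cannot be told apart. The sample titles call the drug AZD1152, a prodrug of AZD2811. The replicates are called biological in the series text, without word of separate cultures, so p-values measure the spread between these libraries. The 4 pRB- libraries held 0.801 to 0.950 scaled FPKM of RB1 and the 4 pRB+ libraries 6.36 to 7.67, as the labels say. The neuroendocrine markers CHGA, CHGB, SYP, NCAM1, INSM1 and NEUROD1 had medians from 14.7 to 90.9 scaled FPKM. Of the markers of other subtypes, POU2F3 and AXL were at or near 0 in every library, and YAP1, REST and CD44 had medians from 0.920 to 2.63. Depth, estimated from the steps of low values, was 23300000 to 33500000 fragments per library. In 3 libraries, pRB+ control replicate 2 and replicate 1 of both AZD2811 groups, untailed RNA (RNA that lacks a poly(A) tail) was abundant, with RMRP from 5792 to 14003 scaled FPKM against 21.2 to 165 in the other 5. These 3 libraries needed the smallest scaling factors, 0.455 to 0.771 against 1.28 to 1.33.

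The checkpoint holds back anaphase until every chromosome is attached to the spindle. At an unattached kinetochore the kinase MPS1 (TTK) starts the signal, BUB1 and BUB3 dock there, and the MAD1 (MAD1L1) scaffold turns MAD2 (MAD2L1) into the form that binds CDC20. CDC20 is the activator of the anaphase-promoting complex (APC/C), the ubiquitin ligase that marks cyclin B and securin for destruction; MAD2, BUBR1 (BUB1B) and BUB3 hold CDC20 in the mitotic checkpoint complex. The complex of ROD (KNTC1), ZW10 and Zwilch brings MAD1 and dynein to the outer kinetochore. Transcripts of many of these genes rise towards mitosis and are repressed in resting cells by pocket proteins of the pRB family and by the DREAM complex, which binds the cell cycle element called CHR.

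The promoters show how the members differ in that element. RefSeq promoter windows (GRCh38.p14, 250 bases before to 50 after the gene start) were matched for 7 of the 10 members: MAD1L1, MAD2L1, BUB1, BUB1B, CDC20, ZW10 and ZWILCH. The windows were searched on both strands for the CHR letters TTTGAA and, as an alternative that reads the same on both strands, TTCGAA. They were also searched for the NF-Y box CCAAT, and for the E2F words TTCCCGC and TTCGCGC, along with TTGCCGC and likewise TTGGCGC. The stretches below run 5′ to 3′ on the gene's strand from 120 bases before the start to 30 after it, with every match in capitals. CDC20 and BUB1 are shown as members that fell in pRB+ cells, BUB1B and MAD2L1 as members that were lower without passing the test, and MAD1L1 as one that hardly differed.
CDC20, chr1:43358861-43359010, + strand: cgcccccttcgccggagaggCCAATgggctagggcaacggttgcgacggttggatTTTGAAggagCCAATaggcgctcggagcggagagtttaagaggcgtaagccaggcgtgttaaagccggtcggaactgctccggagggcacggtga
BUB1, chr2:110678034-110678183, - strand: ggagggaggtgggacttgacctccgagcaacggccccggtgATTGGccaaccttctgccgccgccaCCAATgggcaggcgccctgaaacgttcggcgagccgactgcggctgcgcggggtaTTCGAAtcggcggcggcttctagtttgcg
BUB1B, chr15:40160949-40161098, + strand: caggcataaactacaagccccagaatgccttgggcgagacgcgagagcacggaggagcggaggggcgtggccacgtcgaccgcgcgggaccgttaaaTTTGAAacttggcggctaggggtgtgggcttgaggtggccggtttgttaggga
MAD2L1, chr4:120066819-120066968, - strand: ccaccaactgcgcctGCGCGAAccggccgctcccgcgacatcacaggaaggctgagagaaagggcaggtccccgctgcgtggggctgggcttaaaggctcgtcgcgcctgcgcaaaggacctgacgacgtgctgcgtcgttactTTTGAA
MAD1L1, chr7:2232916-2233065, - strand: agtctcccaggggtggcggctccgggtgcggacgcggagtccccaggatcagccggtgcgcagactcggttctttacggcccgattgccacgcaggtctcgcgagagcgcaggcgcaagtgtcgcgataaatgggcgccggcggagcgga

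The CDC20 stretch holds TTTGAA from base -65 to -60 between CCAAT boxes that begin at -100 and -55. A further CHR match of CDC20 (as TTCAAA) lies from -178 to -173, upstream of the stretch shown. BUB1 holds TTCGAA from base 2 to 7 after the start, with NF-Y boxes that begin at -79 (as ATTGG) and -54. In BUB1B, TTTGAA lies from -23 to -18 with no CCAAT in the window. In MAD2L1, TTTGAA lies from 25 to 30 after the start, with E2F letters (as GCGCGAA) from -105 to -99. A CCAAT box of MAD2L1 (as ATTGG) lies from -229 to -225, upstream of the stretch shown. ZW10, not shown, also hardly differed between the arms (log2 difference 0.02 ± 0.06, SE), and yet it holds CHR letters. Its TTTGAA lies farther upstream, from -224 to -219, and E2F letters (as GCGGGAA) lie from -240 to -234. A CCAAT box of ZW10 (as ATTGG, from -146) overlaps another E2F match, TTGGCGC. Whether the letters bear on the differences was not tested. The window of MAD1L1 held none of the letters searched, and that of ZWILCH held 1 CCAAT box and neither of the others. CHR letters thus stood in 5 of 7 member windows, CCAAT in 5 and E2F letters in 2. Among 12808 windows of tested genes these shares were 11.4%, 35.3% and 19.7%. A match is a description of these letters, not a site of binding.

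**Figure D1:**
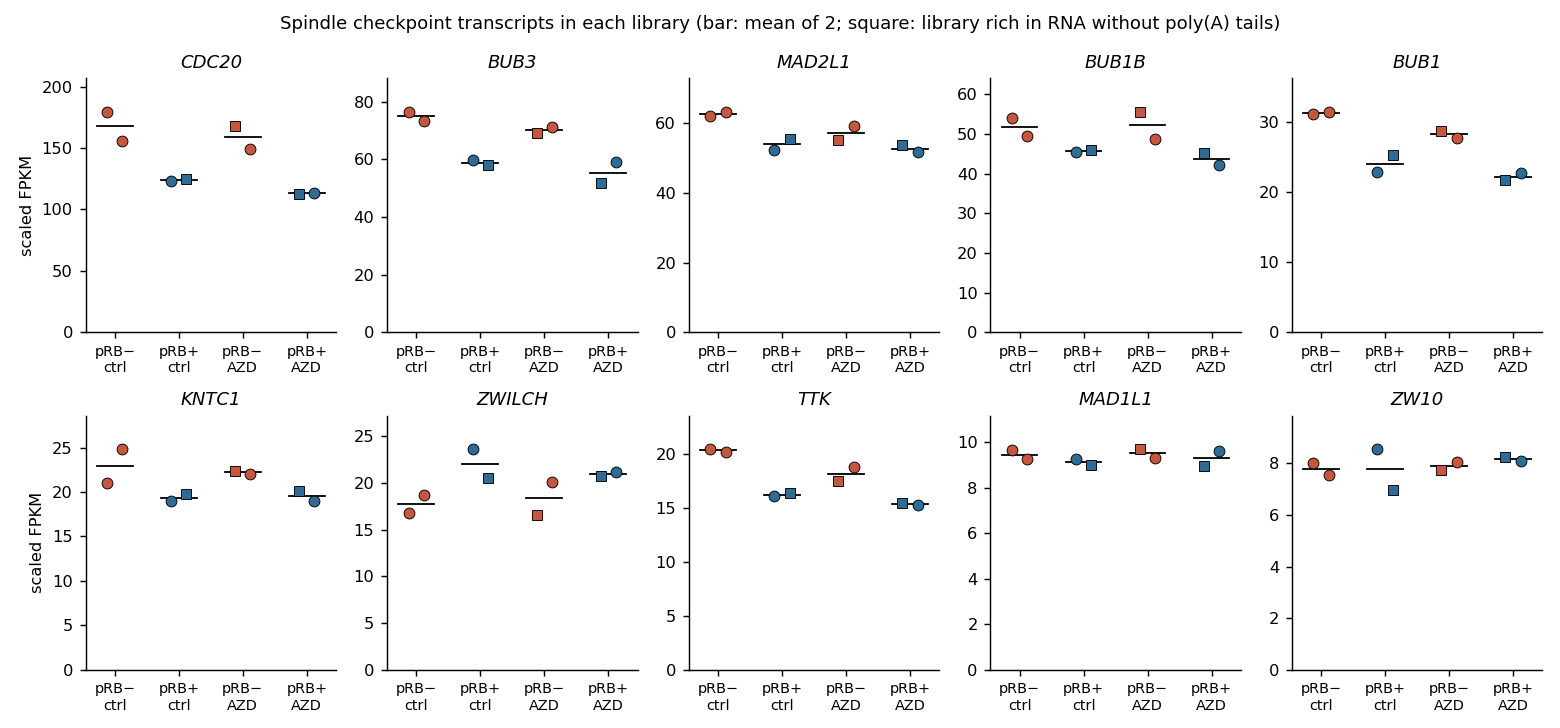
Scaled FPKM (y axis, from 0) of the 10 checkpoint genes in each library, by group on the x axis, ordered by mean level. Red points are pRB- and blue points pRB+ libraries, squares are the 3 libraries rich in untailed RNA, and bars are means of 2. CDC20, BUB3, BUB1B, BUB1, KNTC1 and TTK sit lower in all 4 pRB+ than in all 4 pRB- libraries, and ZWILCH sits higher.

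CDC20 was the most abundant member per length. It had 163 ± 13.3 scaled FPKM in pRB- libraries (SD, n = 4), at percentile 97.0 of the tested genes by its mean level. BUB3 followed at 72.6 ± 3.11, then MAD2L1 at 59.9 ± 3.67 and BUB1B at 52.0 ± 3.38 (SD, n = 4). BUB1 stood at 29.8 ± 1.80, KNTC1 at 22.6 ± 1.64, TTK at 19.3 ± 1.36 and ZWILCH at 18.1 ± 1.68 scaled FPKM. MAD1L1, at 9.50 ± 0.221, and ZW10, at 7.84 ± 0.248, were lowest, near the middle of the tested genes (percentiles 54.5 and 48.9). Among neighbours in this order TTK and ZWILCH had overlapping ranges in pRB- libraries (17.6 to 20.5 and 16.6 to 20.1), as did MAD2L1 and BUB1B (55.0 to 63.3 and 48.6 to 55.6); the other neighbours did not overlap. In pRB+ libraries ZWILCH, at 21.5 ± 1.45, stood above KNTC1, at 19.5 ± 0.540, and above TTK, at 15.8 ± 0.508 (SD, n = 4). The fewest fragments behind any value, at the length of the longest annotated transcript, were an estimated 270 (ZW10), a counting error of 6.09%, and for CDC20 an estimated 3468, an error of 1.70%. The 2 libraries of a group differed by a coefficient of variation between 0.561% (TTK, pRB+ AZD2811) and 14.5% (ZW10, pRB+ control).

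The comparison of all 4 pRB+ with all 4 pRB- libraries asks what re-expressed pRB changes, in a fit with terms for doxycycline and AZD2811. CDC20 fell by 27.1%, BUB1 fell by 21.6%, BUB3 fell by 21.1% and TTK fell by 17.0%, and 0 members rose (limma, adjusted p under 0.05). These percentages are of scaled FPKM plus 1, the scale tested. Of the 12013 genes tested, 5.81% fell and 5.34% rose on the same rule. In all, 8 of 10 members had negative values, with a median log2 difference of -0.21 against -0.0083 over all tested genes, of which 52.0% were negative. By unadjusted p under 0.05 the count was also 8 members, against 32.5% of all genes. These were not the same 8: they included ZWILCH, which was higher, and left out MAD1L1. In bulk RNA, fewer cells in G2 or mitosis and less of a transcript per cell cannot be told apart. The calls did not hold when some single libraries were left out. Leaving out any of pRB- control replicate 1 or 2, pRB+ control replicate 1, pRB- AZD2811 replicate 1 or pRB+ AZD2811 replicate 1 left 0 members called, with the adjusted p of these 4 genes at up to 0.0929. The same omissions left 1 or 2 calls over all genes, against 1340 with all 8 libraries. The members' median log2 difference stayed between -0.22 and -0.20 in them. The fit of 4 group means, the 5 libraries poor in untailed RNA taken alone and FPKM as deposited also called 0 members. The log2 difference itself stayed between -0.50 and -0.42 for CDC20 and between -0.37 and -0.32 for BUB1 over all 17 alternatives run. RB1 itself, at 2.07 or more in each, was called in 16 of the 17 (limma). A fit that calls 0 members need not mean that they do not differ.

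CDC20 had 180 and 156 scaled FPKM in pRB- control, 168 and 150 in pRB- AZD2811, 123 and 125 in pRB+ control and 113 and 114 in pRB+ AZD2811 libraries. The pRB- libraries were all higher than the pRB+ libraries: the lowest pRB- library had 150 and the highest pRB+ library 125. The log2 difference was -0.46 ± 0.06 (SE, 4 against 4; limma, adjusted p = 0.0242). It was -0.43 ± 0.10 in control cells and -0.48 ± 0.10 under AZD2811, where 2 libraries a side did not pass over all genes (adjusted p = 0.160 and 0.374). As a percentage these are -25.8% and -28.4%.

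BUB1, the kinase that also marks centromeres through histone H2A, had 31.1 and 31.5 scaled FPKM in pRB- control, 28.8 and 27.8 in pRB- AZD2811, 22.9 and 25.3 in pRB+ control and 21.7 and 22.7 in pRB+ AZD2811 libraries. The arms did not overlap, and the lowest values were those of pRB+ cells given the drug. The log2 difference of the arms was -0.35 ± 0.05 (SE; limma, adjusted p = 0.0238), with -0.37 ± 0.07 in control and -0.33 ± 0.07 in AZD2811 cells (adjusted p = 0.144 and 0.374).

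BUB3, the small partner that carries BUB1 and BUBR1 to kinetochores, had 76.6 and 73.2 scaled FPKM in pRB- control, 69.3 and 71.2 in pRB- AZD2811, 59.7 and 58.0 in pRB+ control and 51.8 and 59.0 in pRB+ AZD2811 libraries. The arms lay apart, and the widest spread within a group was in pRB+ AZD2811. Its log2 difference was -0.34 ± 0.05 (SE; limma, adjusted p = 0.0251), and it was -0.34 ± 0.08 in each drug state taken alone (adjusted p = 0.163 in control and 0.374 in AZD2811 cells).

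TTK, the kinase that starts the checkpoint signal, had 20.5 and 20.3 scaled FPKM in pRB- control, 17.6 and 18.8 in pRB- AZD2811, 16.1 and 16.4 in pRB+ control and 15.4 and 15.3 in pRB+ AZD2811 libraries. Here the pRB- AZD2811 libraries lay between the pRB- control libraries and the pRB+ libraries. The log2 difference of the arms was -0.27 ± 0.04 (SE; limma, adjusted p = 0.0252), with -0.31 ± 0.06 in control and -0.23 ± 0.06 in AZD2811 cells (adjusted p = 0.146 and 0.374).

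BUB1B, KNTC1 and MAD2L1 were lower in pRB+ cells without passing the test over all genes. BUB1B had 48.6 to 55.6 scaled FPKM without pRB and 42.2 to 45.9 with it, a log2 difference of -0.21 ± 0.06 (SE; limma, adjusted p = 0.0595). KNTC1 ranged from 21.0 to 24.9 and from 19.0 to 20.1, a difference of -0.20 ± 0.06 (adjusted p = 0.0667). For both genes the arms did not overlap. MAD2L1 had 55.0 to 63.3 without pRB and 51.6 to 55.4 with it, with the arms overlapping in pRB- AZD2811 replicate 1 and pRB+ control replicate 2 (-0.16 ± 0.05, adjusted p = 0.0702). Both of those libraries are rich in untailed RNA, and with a term for such libraries MAD2L1 was still not called while BUB1B was.

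MAD1L1 and ZW10 hardly differed between the arms and ZWILCH was higher in pRB+ cells, none of them past the test. MAD1L1 had 9.28 to 9.72 scaled FPKM without pRB and 8.96 to 9.63 with it, and its highest library was 1.08 times its lowest, the narrowest span of the 10. Its log2 difference of -0.04 ± 0.04 (limma, adjusted p = 0.567) had a 95% interval from -0.14 to 0.06. ZW10 ranged from 7.53 to 8.06 and from 6.97 to 8.56, a difference of 0.02 ± 0.06 (adjusted p = 0.867) with an interval from -0.13 to 0.17. ZWILCH had 16.8 and 18.7 scaled FPKM in pRB- control, 16.6 and 20.1 in pRB- AZD2811, 23.7 and 20.5 in pRB+ control and 20.8 and 21.2 in pRB+ AZD2811 libraries. The 4 pRB+ libraries were higher than the 4 pRB- libraries, by 0.24 ± 0.08 on the log2 scale, which did not pass (limma, adjusted p = 0.0825).

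Over all genes 11.2% lay apart downwards and 10.7% upwards between the 4 against 4 arms, and among the members 6 lay apart downwards and 1, ZWILCH, upwards. ZWILCH was called as higher with a term for the libraries rich in untailed RNA and without pRB- AZD2811 replicate 2 (adjusted p from 0.0473 to 1 over 17 alternatives). In GENCODE 29, exons of RPL4, a ribosomal protein gene with 1509 to 2043 scaled FPKM, cover 158 of the 4849 exon bases of ZWILCH on the opposite strand. The library kit is stranded, but how strand was counted is not given in the sources used here. RPL4 itself had a log2 difference of -0.06 ± 0.12 between the arms (limma, adjusted p = 0.771). Some other members could share reads too: BUB1B shares 457 of 4476 exon bases with the read-through gene BUB1B-PAK6 on its own strand, and BUB1, BUB3 and CDC20 have processed pseudogenes. Their values carry that uncertainty.

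**Figure D2:**
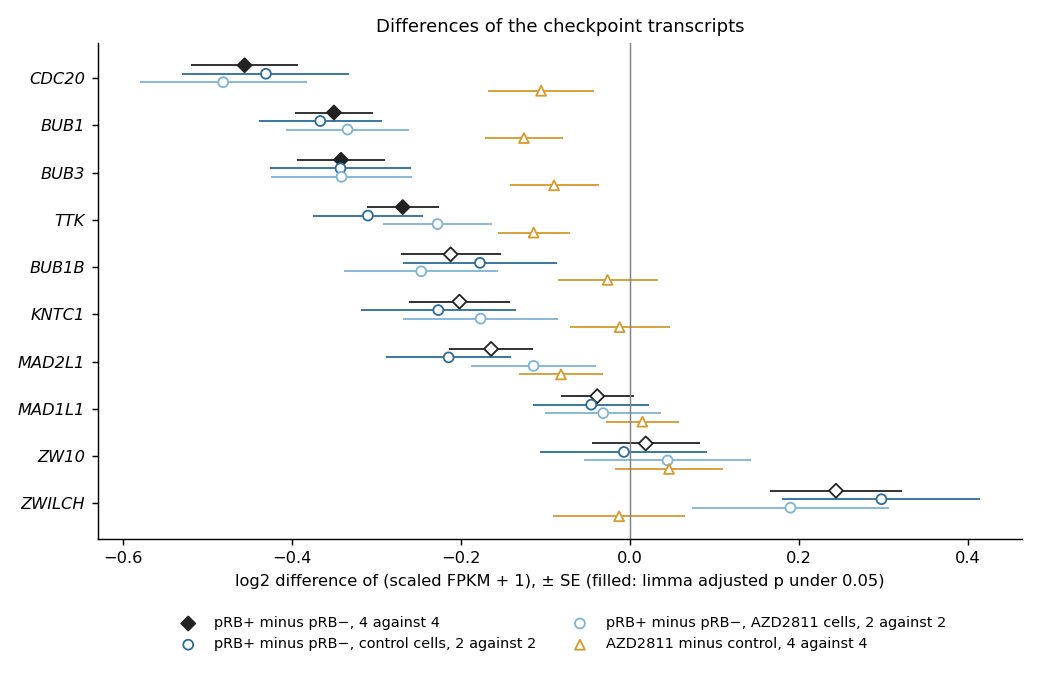
Log2 differences of log2(scaled FPKM + 1) with SE (x axis) for each member (y axis), for pRB+ minus pRB- over all 8 libraries (diamonds), in control cells and in AZD2811 cells (circles) and for AZD2811 minus control (triangles). Filled symbols passed limma at an adjusted p under 0.05; CDC20, BUB1, BUB3 and TTK are the filled ones, from -0.46 to -0.27, and the drug differences lie between -0.13 and 0.05.

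With 2 libraries a side, 0 members passed in control cells and 0 under AZD2811 (limma), while 7 and 5 had an unadjusted p under 0.05. The 7 included ZWILCH, which was higher in pRB+ cells, and the 5 were all lower. Of all genes, 0.0666% and 0.00832% passed in these comparisons, and 19.3% and 12.3% had an unadjusted p under 0.05. Negative values were found for 9 of 10 members in control cells, with a median log2 difference of -0.22 against -0.012 over all genes. Under AZD2811 they were found for 8 of 10, with a median of -0.20 against -0.0040. The 2 comparisons set different libraries against each other. Both take their spread from 1 fit on all 8 libraries, so their p-values are not independent. Groups that did not overlap, lower in pRB+, were found for 8 members in control cells and 7 under AZD2811, where 31.1% and 20.9% of all genes did so. Higher in pRB+ without overlap were 1 member in control cells (26.4% of all genes) and 2 under AZD2811 (21.3%). The difference between the pRB effects in the 2 drug states, taken as the interaction, passed for 0 members (limma, smallest adjusted p = 1.00), with 0 also by unadjusted p; of all genes 0.0166% passed and 0.641% had an unadjusted p under 0.05. The interaction ranged from -0.11 (ZWILCH) to 0.10 (MAD2L1) on the log2 scale, so no member had a pRB effect shown to depend on the drug.

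No member changed past the test under Aurora B inhibition. The comparison of all 4 AZD2811 with all 4 control libraries asks what the inhibitor of the kinase that corrects faulty attachments changes after 48 h. In it 0 of 10 members passed and 0 of 12013 genes (limma), while 2 members and 3.55% of all genes had an unadjusted p under 0.05. Those 2 were BUB1, at -0.13 ± 0.05 on the log2 scale with a 95% interval from -0.23 to -0.02, and TTK, at -0.11 ± 0.04 with an interval from -0.21 to -0.01 (adjusted p = 0.965 for each). CDC20 stood at -0.11 ± 0.06 with an interval from -0.25 to 0.04 (adjusted p = 0.965). The members' median was -0.05, against -0.0069 over all genes, and 8 of 10 were negative. Between all 4 drug and all 4 control libraries 0 members lay apart, in either direction (0.574% of all genes lower, 0.358% higher). Within pRB- cells alone 0 members passed (limma; 0 by unadjusted p), where 0.0333% of all genes did (2.70% by unadjusted p), and within pRB+ cells alone 0 passed (0 by unadjusted p), where 0.00832% did (0.683% by unadjusted p). BUB1 and TTK were lower in both drug libraries than in both control libraries in pRB- cells, and again in pRB+ cells, as the values above show. With 2 libraries a side such a gap was found for 17.4% of all genes in pRB- and 9.90% in pRB+ cells; 4 members showed it in each. Gaps in the other direction were found for 0 members, against 12.8% and 7.14% of all genes.

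Because the members share a library, their ratios do not depend on the scaling between libraries. They are given as a description, without a test, since the pairs were chosen with results of these data known. Per length, there were 2.47 to 3.05 CDC20 transcripts to 1 of MAD2L1, its inhibitor, in pRB- libraries, and 2.09 to 2.35 in pRB+ libraries. The ratio of CDC20 to BUB1B was 3.14 ± 0.138 in pRB- and 2.66 ± 0.108 in pRB+ libraries (SD, n = 4), again without overlap. CDC20 to BUB3, both of which fell, overlapped between the arms, at 2.25 ± 0.157 and 2.08 ± 0.113. CDC20 transcripts were thus fewer relative to MAD2L1 and BUB1B, whose proteins hold CDC20 back, in all 4 pRB+ libraries. The ratios of MAD2L1 to MAD1L1 and of BUB1 to BUB1B, also computed, overlapped between the arms. They were 6.32 ± 0.480 and 0.575 ± 0.0482 in pRB- libraries, and 5.79 ± 0.365 and 0.519 ± 0.0311 in pRB+ libraries (SD, n = 4).

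Within the ROD, ZW10 and Zwilch complex the ratios of ZWILCH were higher in pRB+ cells. ZWILCH transcripts stood at 0.802 ± 0.0786 to 1 of KNTC1 in pRB- and at 1.11 ± 0.0986 in pRB+ libraries (SD, n = 4). The values ran from 0.741 to 0.913 and from 1.04 to 1.25, without overlap. This gap follows from the values given above and adds nothing to them. ZWILCH was higher, and KNTC1 lower, in every pRB+ library than in any pRB- library. ZWILCH to ZW10 was 2.30 ± 0.215 in pRB- and 2.71 ± 0.185 in pRB+ libraries. Here too the arms did not overlap, though the lowest pRB+ value lay close to the highest pRB- value.

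**Figure D3:**
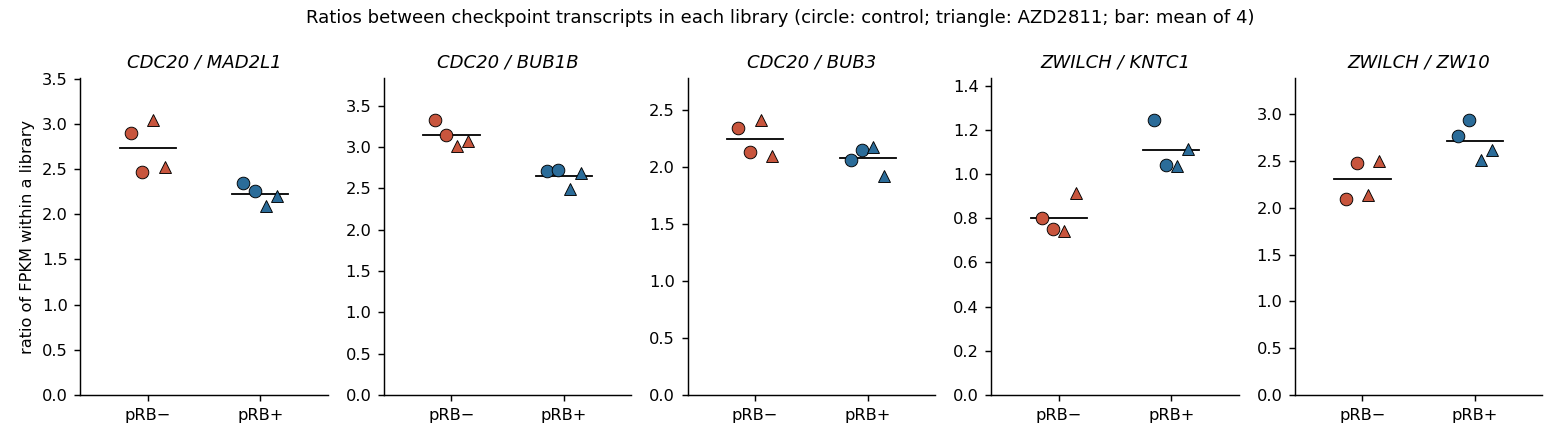
Ratio of FPKM of named pairs within each library (y axis, from 0) in pRB- (red) and pRB+ (blue) cells; circles are control and triangles AZD2811 libraries, and bars are means of 4. CDC20 to MAD2L1 and CDC20 to BUB1B are lower in all pRB+ libraries, ZWILCH to KNTC1 is higher in all of them, and CDC20 to BUB3 overlaps.

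Other genes of the pathway, 43 in 4 lists, were set beside the members in the comparison of 4 with 4 libraries. Of these, 13 fell and 1 rose (limma), where 5.81% and 5.34% of all genes did, and the median log2 difference was -0.16. These calls were lost, as were those of the members, under omissions of single libraries that left 1 or 2 calls over all genes. Of the 43, 0 were called without pRB- control replicate 1 or 2, pRB+ control replicate 1, or replicate 1 of either AZD2811 group, with the smallest adjusted p between 0.0592 and 0.0929. The count was also 0 in the fit of 4 group means (smallest adjusted p = 0.0516), in the 5 libraries poor in untailed RNA (0.194) and with FPKM as deposited (1). The median of the 43 stayed between -0.18 and -0.14 over all 17 alternatives. Among APC/C substrates and separase 5 of 7 fell, with a median of -0.47, and 0 of 7 were called under the settings just named. CCNA2 (cyclin A2) stood at -0.50 ± 0.05, CCNB2 (cyclin B2) at -0.47 ± 0.06, PTTG1 (securin, which holds separase) at -0.59 ± 0.09 and CCNB1 (cyclin B1) at -0.31 ± 0.05 (SE; adjusted p from 0.0238 to 0.0252). The fifth, NEK2, a centrosome kinase named here after its value was seen, stood at -0.75 ± 0.13 (adjusted p = 0.0266). PTTG1 went from 192 ± 11.6 scaled FPKM in pRB- to 128 ± 19.0 in pRB+ libraries (SD, n = 4).

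The checkpoint proteins dock to the outer kinetochore. Of its 8 genes, 0 were called with any 1 of the 5 libraries named for the 43 genes left out, or in the fit of 4 group means. In the additive fit of all 8 libraries 4 of the 8 fell (median of the 8: -0.27), where 5.81% of all genes did. These were PMF1 (-0.41 ± 0.06), a subunit of the MIS12 complex, DSN1 (-0.30 ± 0.05) of the same complex, and SPC24 (-0.46 ± 0.10) and NUF2 (-0.33 ± 0.08) of the NDC80 complex (SE; limma, adjusted p from 0.0247 to 0.0374). SPC24 and NUF2 also lost their calls with no filter on low genes and without pRB+ control replicate 2, and NUF2 without pRB- AZD2811 replicate 2. In the list of recruitment and silencing factors 2 of 10 fell, the kinases PLK1 (-0.40 ± 0.05) and AURKB (-0.44 ± 0.07) (adjusted p = 0.0238 and 0.0248). Both lost their calls when any 1 of the 5 libraries named for the 43 genes was left out or in the fit of 4 group means. MAD2L1BP, the p31comet protein that helps to switch the checkpoint off, stood at 0.22 ± 0.06 and SPDL1 (Spindly), which links the ROD complex to dynein, at 0.28 ± 0.09, neither past the test (adjusted p = 0.0594 and 0.0740). For both genes the pRB+ libraries were all higher than the pRB- libraries.

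Of 18 APC/C subunits, E2 enzymes and regulators, 2 fell and 1 rose, where 5.81% and 5.34% of all genes did. The median of the 18 was -0.05. Here too 0 were called when any 1 of those 5 libraries was left out or in the fit of 4 group means. UBE2C, the E2 enzyme that starts ubiquitin chains, fell by 0.39 ± 0.07 and FBXO5 (EMI1), an APC/C inhibitor, by 0.33 ± 0.05 on the log2 scale (SE; adjusted p = 0.0262 and 0.0252). The subunit gene CDC16 rose by 0.47 ± 0.08 (limma, adjusted p = 0.0254), from 12.9 ± 0.980 to 18.3 ± 1.77 scaled FPKM (SD, n = 4), and the subunit gene CDC27 stood at 0.31 ± 0.08 (adjusted p = 0.0540). In the comparison of AZD2811 with control 0 of the 43 passed (limma). By unadjusted p under 0.05 the count was 4 of the 43, against 3.55% of all genes. The median of the 43 was -0.07, against -0.0069 over all genes.

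**Figure D4:**
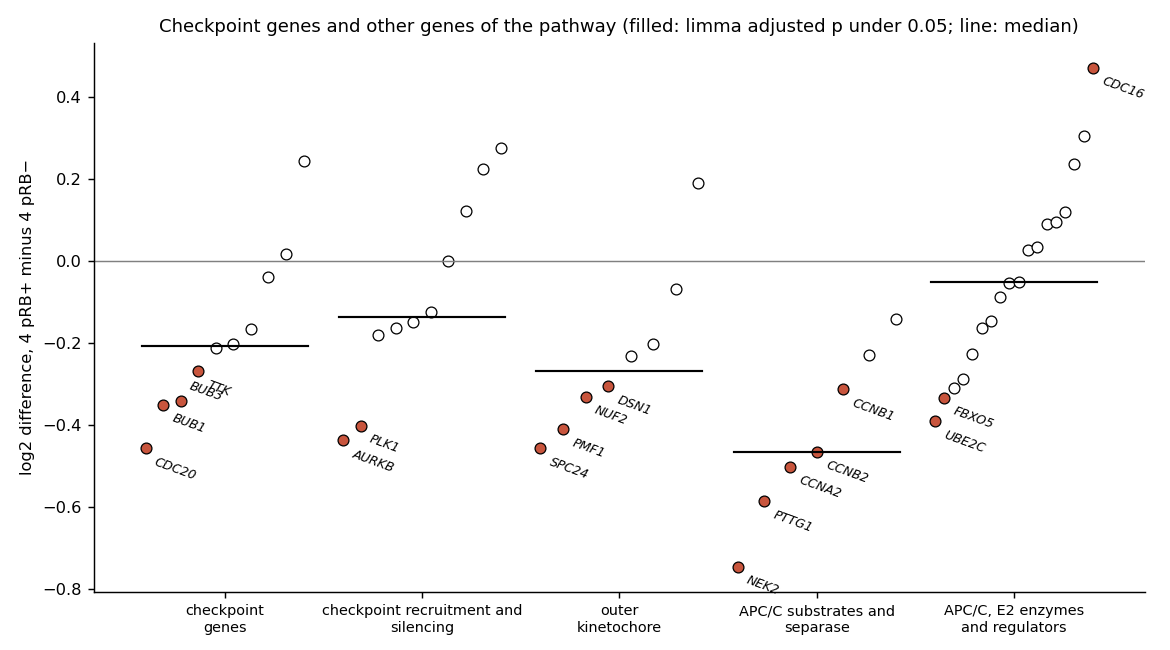
Log2 difference of 4 pRB+ minus 4 pRB- libraries (y axis) for the 10 checkpoint genes and 43 other genes of the pathway, by list on the x axis; filled points passed limma at an adjusted p under 0.05 and are named, and lines are medians. The medians run from -0.47 for APC/C substrates and separase to -0.05 for APC/C subunits, E2 enzymes and regulators, with -0.21 for the checkpoint genes.

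The genes most like 3 of the members in pattern over the 8 libraries were looked up by Pearson's r among the tested genes outside the 10, as a description, since all libraries share the pRB split. For CDC20 they were CISH, AURKA (Aurora A kinase) and TRMT11, with r from 0.988 to 0.989. For BUB1 they were NUSAP1 and TPX2, both spindle proteins, and DEPDC1, with r from 0.990 to 0.991. For MAD1L1, which hardly varied, they were FLYWCH2, LOC642423 and MPND, with r from 0.929 to 0.961.

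**Figure D5:**
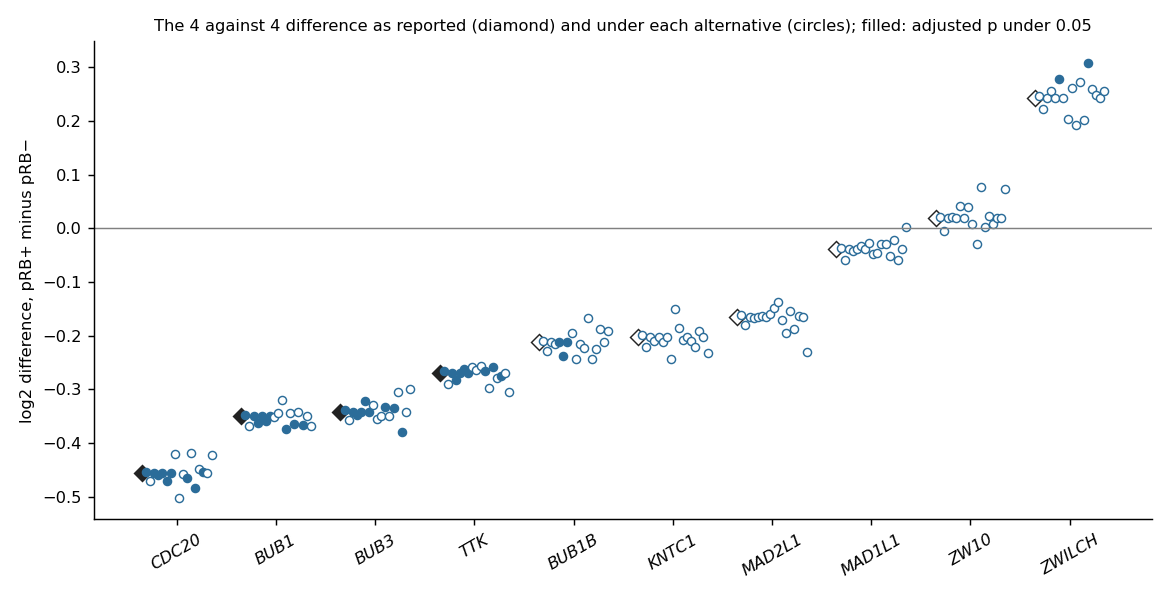
Log2 difference of 4 pRB+ minus 4 pRB- libraries for each member (x axis) as reported (diamond) and under each of 17 alternatives (circles); filled symbols had a limma adjusted p under 0.05. The difference of CDC20 stays between -0.50 and -0.42 and that of BUB1 between -0.37 and -0.32, while 9 of 17 alternatives call each of them.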

How the data were processed

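The authors deposited 1 table of FPKM, 1 value per gene and library, for 8 libraries; the submitters' processing notes list hg19, Cufflinks 2.2.1 and STAR 2.5.1b with no role or order, and the gene annotation is not given in the sources used here. Per the labels' protocols each library was made from 500 ng RNA with a stranded total RNA kit. Of 25365 rows, 28 with names turned into dates were left out. Each library was scaled by its trimmed mean log ratio to a reference made of gene-wise geometric means (trimming 30% by ratio, 5% by level, at both ends), 12013 genes with a mean of at least 1 were kept, 283 of them small RNA genes, and log2 of the value plus 1 was tested with limma 3.58.1 in R 4.3.3 (intensity trend, Benjamini-Hochberg adjustment over all tested genes, threshold 0.05). Differences on this scale understate those of low genes. Comparisons over 8 libraries used additive terms for doxycycline and AZD2811; the other 5 of 7 used a fit of 4 group means on all 8 libraries. The members, lists, additive fit and alternatives were chosen with earlier results of these data known. Named genes are the members, RB1, up to 4 genes with the smallest p per pathway list, the 3 genes most like CDC20, BUB1 and MAD1L1, and RMRP. Outside that rule stand the markers of the tumour type and of other subtypes, RPL4 and BUB1B-PAK6, named for their overlap with members, and NEK2, named after its value was seen. Depth was fitted to steps of 1 fragment in 1524 genes that GENCODE 29 gives only 1 transcript, longer than 1500 nucleotides (length less 200, searched between 15000000 and 45000000); at 1 FPKM in a gene of 1500 nucleotides the counting error is 14.1% to 16.9%, which covers counting only. The fits were tested on simulated data with independent noise. Differences shared by several libraries, such as those rich in untailed RNA, were not simulated. The shares recovered may therefore not hold for the real libraries. Changes of 0.5 on the log2 scale were recovered in 71.9% of cases over all 8 libraries. In control cells, with 2 libraries a side, 28.7% were recovered. The members' differences were smaller than 0.5, so a member not called there may still differ. Figures used Python 3.11.15 and matplotlib 3.10.9. A further marker that was looked at is not reported here.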

Additional observations from a re-analysis of the deposited data

How the results depend on the processing

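For pRB+ against pRB- over all 8 libraries, the 4 members called became 0 with FPKM as deposited, 0 in the fit of 4 group means and 0 among the 5 libraries poor in untailed RNA, and ran from 0 to 5 with 1 library left out; median-ratio scaling, no filter and a pseudocount of 0.1 kept BUB1, BUB3, TTK and CDC20. Over all genes the 1340 calls became 143, 4 and 1 under the first 3 of these, and 744 with no filter. The replicate block gave 5, as did leaving out small RNA genes, and a library type term gave 6. Correlations of replicate deviations between groups ran from -0.578 to 0.722. Between groups that each hold a library rich in untailed RNA, they were positive where the same replicate was rich and negative where the other was. They therefore cannot show whether the replicate numbers pair the samples. In the other 6 comparisons the count was 0 under every alternative run. Differences that changed sign were not called. FPKM as deposited, which moves the median of all genes by -0.33 in control cells and 0.26 under AZD2811, turned ZW10 to -0.0047 over 8 libraries and ZWILCH to -0.048 in control cells. Under AZD2811 it turned MAD1L1 to 0.26, MAD2L1 to 0.21, BUB1B to 0.081, TTK to 0.079 and KNTC1 to 0.14. MAD1L1 stood at 0.0030 in the 5 libraries and ZW10 at 0.040 in control cells with the library type term. With 1 library left out, ZW10 ran from -0.029 to 0.076 over 8 libraries, and from -0.14 to 0.12 in control cells, where it was also positive, at 0.033, without pRB- control replicate 1; MAD1L1 ran from -0.079 to 0.015 under AZD2811. The causes were not tested.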
